A study of Mus musculus with 6 samples.

Results

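Chemokine ligands are small secreted proteins that guide the movement of white blood cells. The ligands described here are all rows of the deposited gene table whose symbol is Ccl or Cxcl with a number and at most 1 letter, or is Cx3cl1 or Xcl1. This gave 39 of 24054 gene rows. Of these, 29 reached a mean of 1 across the 6 libraries and could be tested, 10 lay under that mean, and 2 of the 10 were at 0 in every library.

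The lungs came from female SCID mice, which lack mature T and B cells, and there were 3 libraries in each of 2 groups. Every mouse had been given CD9+CD63+CD81+ extracellular vesicles (EVs) through the tail vein, then, 48 h later, 500000 rat ELT3 cells intravenously, and the lungs were collected 72 h after the cells. The vesicles were from E15.5 mouse neural progenitors that were either wild type (WT EV) or without Tsc1 (Tsc1-null EV), and by the labels nothing else differs between the groups. ELT3 is a Tsc2-deficient rat line used as a model of lymphangioleiomyomatosis cells. Mice without vesicles or without ELT3 cells were not analysed here, the number of progenitor lines behind the vesicles is not given in the sources used here, and reads of rat cells cannot be told from mouse reads. The samples carry separate numbers, and where a number does not stand for a separate mouse the p-values measure only the spread between these samples. The comparison asks whether lung chemokine transcripts differ with the genotype of the vesicle donor cells.

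Chemokines bind receptors on the surface of white blood cells and on some stromal and tumour cells. Homeostatic ligands such as Cxcl12 and Ccl21 are made all the time and place cells in tissues and lymphoid organs, while inflammatory ligands such as Ccl2 and Cxcl1 are induced by cytokines and draw monocytes, neutrophils or activated lymphocytes. In the lung the epithelium, the vessel and lymphatic endothelium, fibroblasts and macrophages are all known sources. By general knowledge of their use the 39 ligands were put into 12 homeostatic, 20 inflammatory and 7 dual ligands, the last being constitutive in some tissues and induced in others.

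All values below are TMM-normalized CPM (the reads of a gene scaled to the size of its library), in the order of replicates 1, 2 and 3 of a group. Changes are log2 folds of value + 1 for Tsc1-null EV relative to WT EV, with their standard error, from a limma fit over all 14159 genes with a mean of at least 1. The libraries held 5101413 to 9358820 reads, so that 1 read corresponded to 0.108 to 0.200 CPM. Replicate 2 of WT EV and replicate 1 of Tsc1-null EV stood apart, with median correlations of 0.963 and 0.942 with the other libraries against 0.980 to 0.982. The nuclear RNA Malat1 was at 15673 and 30060 CPM in these 2 libraries and at 1609 to 2819 in the other 4. The lung label fits the level of the club cell product Scgb1a1, 48294 to 91441 CPM, and of the surfactant gene Sftpc, 13095 to 29628 CPM.

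None of the 29 ligands passed the test between the groups. With limma, 0 of 14159 genes (0%) reached an adjusted p under 0.05, and 930 (6.57%) had an unadjusted p under 0.05. edgeR on the recovered reads called 0 of 13873 genes (0%), with 962 (6.93%) unadjusted, and DESeq2 called 12 of 10213 genes with an adjusted p (0.117%), none of them among the 10 ligands that had one. By unadjusted limma p, 9 of the 29 ligands were under 0.05, namely Ccl2, Ccl9, Ccl12, Ccl17, Ccl21a, Ccl27a, Cxcl10, Cxcl12 and Cxcl15, each with a limma adjusted p of 0.721. The count was 7 of 27 ligands by edgeR and 9 of 37 by DESeq2, where 5.22% of all genes were under 0.05.

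Of the 29 ligands, 4 were higher in every Tsc1-null EV lung than in every WT EV lung, against 6.86% of all genes tested, and 4 were lower in every one, against 6.22%. The 4 higher ligands were Cxcl15, Cxcl12, Ccl2 and Ccl17, and the 4 lower ones were Ccl21a, Ccl27a, Ccl12 and Cxcl10. Together they are 27.6% of the ligands tested, against 13.1% of genes. The Ccl21a row among them belongs to a gene with nearly identical copies, and the summed Ccl21 copies overlapped between the groups. In bulk lung, fewer cells of a type and less RNA per cell cannot be told apart. With weights estimated for each library, limma called 6 ligands, Ccl21a on the lower side and Ccl2, Ccl8, Ccl9, Ccl17 and Cxcl15 on the higher side, where 1050 genes (7.42%) were called. Those weights were 0.21 for Tsc1-null EV replicate 1, 0.39 for WT EV replicate 2 and 0.776 to 4.19 for the other 4 libraries.

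**Figure D1:**
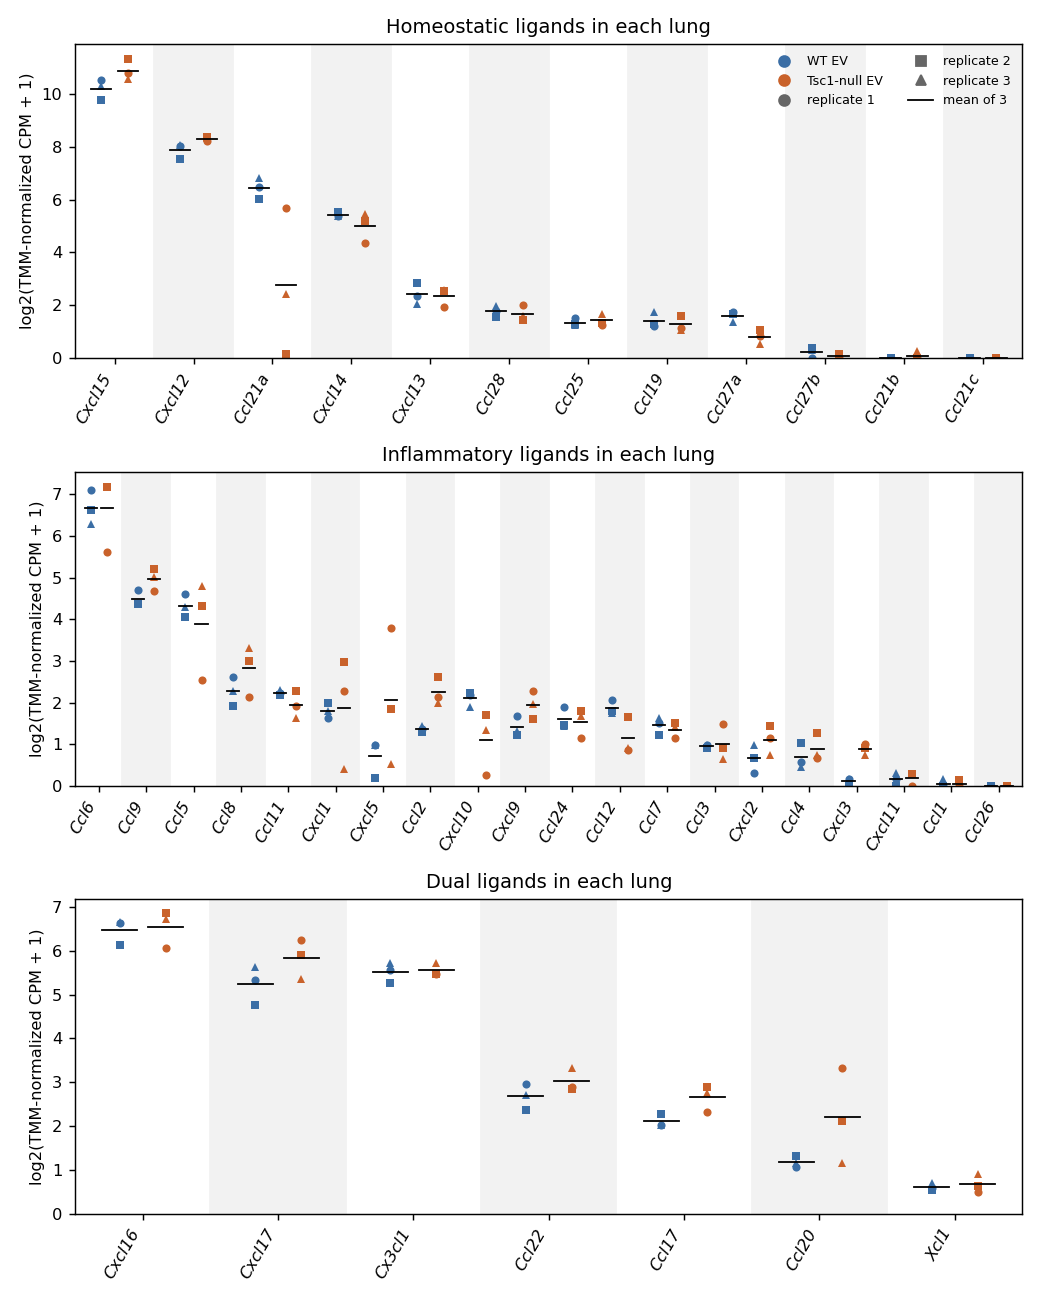
Level of every ligand in each lung on a log2(CPM + 1) axis, homeostatic, inflammatory and dual ligands in separate panels; symbols are replicates 1 to 3 of WT EV and Tsc1-null EV, and bars are means of 3. Cxcl15 lies highest in every lung (867 to 2552 CPM), and the Ccl21a points of Tsc1-null EV spread from 0.108 to 50.1 CPM.

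Per length of annotated exon, the ligands spanned a wide range in these lungs. The homeostatic Cxcl15 stood first, at a mean over all 6 libraries of 735 CPM per kilobase, and no other ligand reached its lowest lung. Cxcl17, Ccl21a and Ccl6 followed at 63.2, 60.9 and 60.2 CPM per kilobase, and these 3 could not be ordered, since their lungs overlapped. The place of Ccl21a describes neither group, since its means were 100.8 in WT EV and 20.9 CPM per kilobase in Tsc1-null EV lungs. It also counts 1 of several rows of nearly identical copies. Next came Cxcl12 and Cxcl16 at 33.7 and 30.6, Cxcl14 and Ccl5 at 20.4 and 18.8, and Cx3cl1 and Ccl8 at 11.6 and 10.1 CPM per kilobase, each pair also overlapping. The first 10 thus held 4 homeostatic, 3 inflammatory and 3 dual ligands. Exon length was the union of all annotated exons in GENCODE M21, which lowers the value of genes with long alternative exons such as Cxcl12.

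Summed over its members, the homeostatic class stood at 1871, 1171 and 1672 CPM in WT EV and at 2124, 2930 and 1881 CPM in Tsc1-null EV lungs. These sums did not overlap, but Cxcl15 made up most of them. Without Cxcl15 the sums were 377.3 ± 64.4 and 378.0 ± 1.41 CPM (SD, n = 3) and overlapped. With the Ccl21-like gene model Gm1987 added, which the symbol rule does not cover, they were 379.4 ± 66.2 and 477.2 ± 37.4 CPM. These again did not overlap, but only just, with WT EV replicate 3 at 431.2 and Tsc1-null EV replicate 1 at 434.2 CPM. The inflammatory sums were 171.0 ± 37.7 and 195.2 ± 68.9 CPM, and 66.9 ± 9.09 and 83.1 ± 14.6 CPM without Ccl6, their highest member. The dual sums were 183.5 ± 35.8 and 217.4 ± 14.9 CPM, and 93.9 ± 19.0 and 122.1 ± 15.2 CPM without Cxcl16. Inflammatory and dual sums overlapped in every form.

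Counted gene by gene, 3 of the 9 homeostatic ligands tested lay above 0 in log2 fold, and their median was -0.09. Of the 14 inflammatory ligands 7 were above 0, with a median of 0.02, and of the 6 dual ligands all 6 were above 0, with a median of 0.44. Over all genes tested 47.3% were above 0 and the median was -0.02. Neither the homeostatic nor the inflammatory ligands thus lay on one side. Without both libraries that stood apart the dual median was 0.19.

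**Figure D2:**
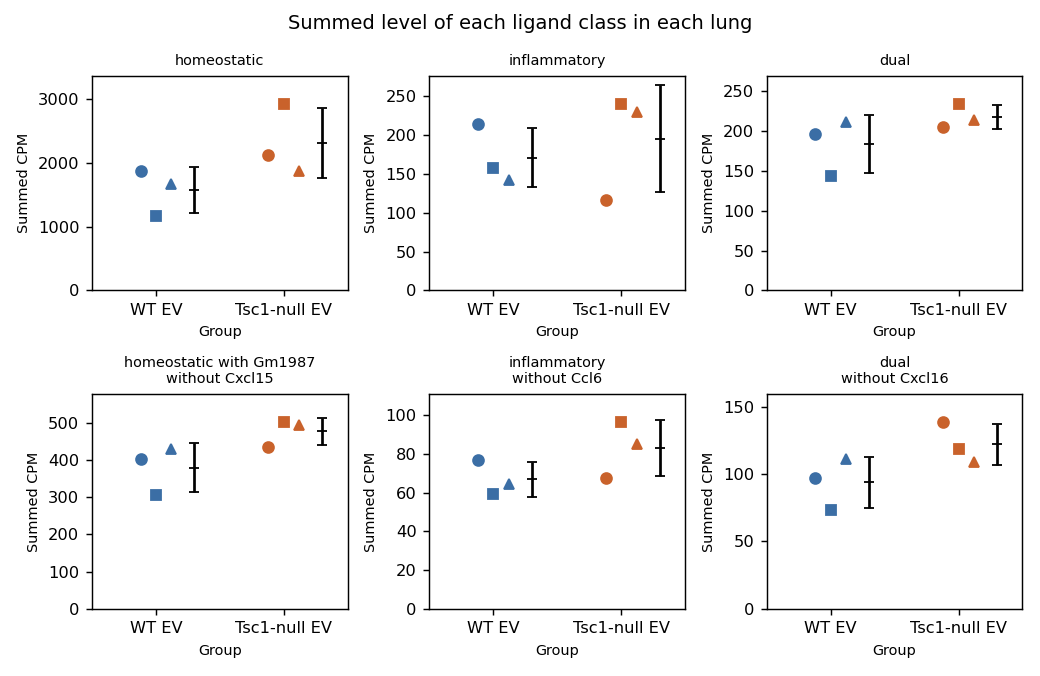
Summed CPM of each ligand class in each lung, from 0, with mean ± SD over 3 lungs per group; the lower row leaves out the highest member of each class and adds Gm1987 to the homeostatic class. The homeostatic sums of 1171 to 1871 CPM (WT EV) lie below those of 1881 to 2930 CPM (Tsc1-null EV), and the inflammatory and dual sums overlap.

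Among homeostatic ligands, Cxcl15 (lungkine, a neutrophil attractant made by lung epithelium) stood at 1470.0, 867 and 1246 CPM in WT EV lungs and at 1747, 2552 and 1501 CPM in Tsc1-null EV lungs. All 3 Tsc1-null EV lungs lay above all 3 WT EV lungs, the lowest of the former just above the highest of the latter. The log2 fold was 0.69 ± 0.28 (limma adjusted p = 0.721), and leaving out replicate 2 of WT EV gave 0.48 and leaving out replicate 2 of Tsc1-null EV gave 0.47. Markers of 2 of the 3 lung epithelial cell types listed lay on the same side as Cxcl15. All 5 alveolar type 2 markers were above 0, with a median of 0.47 and sums of 22897 to 30256 CPM in WT EV and 20407 to 40794 CPM in Tsc1-null EV lungs. All 3 club cell markers were above 0 as well, with a median of 0.65 and sums of 52438 to 74723 and 68553 to 104574 CPM. Of the 3 alveolar type 1 markers none was above 0, with a median of -0.20 and sums of 2906 to 5167 and 2569 to 4213 CPM. Their part in the level of Cxcl15 was not tested.

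Cxcl12, the ligand of Cxcr4 that holds blood-forming cells in their niche and draws tumour cells that carry this receptor, stood at 260.9, 182.3 and 263.1 CPM in WT EV lungs. In Tsc1-null EV lungs it stood at 297.7, 330.8 and 320.7 CPM. The groups did not overlap, and the log2 fold was 0.44 ± 0.18 (limma adjusted p = 0.721). WT EV replicate 2 was the lowest lung, and without it the log2 fold was 0.27. Cxcr4, its signalling receptor, was at 97.6, 52.9 and 98.1 CPM and at 45.1, 77.9 and 83.8 CPM, with overlapping lungs. Ackr3, which takes up Cxcl12 without signalling through G proteins, was at 37.7 ± 8.01 and 38.9 ± 13.2 CPM (SD, n = 3), also overlapping.

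Ccl21 draws Ccr7-bearing dendritic cells and lymphocytes into lymphatic vessels and lymph nodes. The mouse genome holds several nearly identical copies of its gene, which the deposited table lists as Ccl21a, Ccl21b, Ccl21c and the predicted genes Gm1987, Gm10591, Gm13304 and Gm21541. Ccl21a lies on the minus strand of chromosome 4 at chr4:42772860-42773993 (mm10, GENCODE M21). Ccl21b lies on the plus strand of the same chromosome at chr4:42255767-42256432. Over the 402 coding bases of GENCODE M21, Ccl21a differs from Ccl21b by the substitutions T84A and C194T, counted from the A of the start codon with the base of Ccl21a first. Gm10591, Gm13304 and Gm21541 carry the same 2 substitutions, so that coding identity is 99.5%. The windows of bases 54 to 224 show how little separates the copies, with both differing bases in capitals.
Ccl21a: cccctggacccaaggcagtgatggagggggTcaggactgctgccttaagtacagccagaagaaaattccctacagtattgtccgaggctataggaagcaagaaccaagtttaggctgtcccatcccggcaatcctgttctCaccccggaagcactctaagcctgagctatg
Ccl21b: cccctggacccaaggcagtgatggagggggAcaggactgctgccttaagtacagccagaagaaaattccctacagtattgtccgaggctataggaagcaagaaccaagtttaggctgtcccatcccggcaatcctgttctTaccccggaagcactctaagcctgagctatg
The deposited gene names call Ccl21a the serine form and Ccl21b and Ccl21c the leucine form. Of the 50-base words of Ccl21a transcripts 71.6% occur in another gene, and all those of Ccl21b do (100%). In RefSeq (GRCm38.p6) the promoters of Ccl21d, Gm10591 and Gm13304 differ from that of Ccl21a at 2, 3 and 3 of 299 bases. The start that RefSeq gives for Ccl21b lies elsewhere on chromosome 4, and its promoter was not compared here. RefSeq assigns Gm1987 to chromosome 4 as a protein-coding gene, at 120655 to 121788 of a scaffold outside the assembled chromosome, and its sequence was not used here. GENCODE M21 gives the name Ccl21a to a second gene as well, at 121048 to 121713 of the scaffold JH584294.1. These coordinates fall within those that RefSeq gives for Gm1987. Whether both names stand for the same locus was not tested.

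The row Ccl21a stood at 88.1, 63.5 and 111.5 CPM in WT EV lungs and at 50.1, 0.108 and 4.42 CPM in Tsc1-null EV lungs. The lowest of these values was a single read. The groups did not overlap, and the log2 fold was -3.68 ± 1.12 (limma adjusted p = 0.721). On the recovered reads it was -2.34 with edgeR (adjusted p = 0.716) and -2.25 with DESeq2 (adjusted p = 0.927). Without Tsc1-null EV replicate 2 it was -2.38 (limma adjusted p = 0.946). Without Tsc1-null EV replicate 1 the log2 fold was -5.14 and Ccl21a passed (limma adjusted p = 0.0337), one of 2 genes that did so (0.0141% of genes). Without both libraries that stood apart it was -5.35 (limma adjusted p = 0.00103), where 25 genes passed (0.177%).

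The row Gm1987 showed the opposite pattern, at 0.732, 0.441 and 4.94 CPM in WT EV lungs and 57.5, 124.8 and 115.4 CPM in Tsc1-null EV lungs. Its log2 fold was 5.27 ± 0.52 (limma adjusted p = 0.067), with no overlap, and DESeq2 called it (adjusted p = 0.000141). It was also called by limma without WT EV replicate 3 (adjusted p = 0.00312) or without Tsc1-null EV replicate 1 (adjusted p = 0.0181). Of 17 settings, the main fit included, 5 called it. It was not called with edgeR or with any other single replicate left out. Ccl21b had 2 reads in 1 library, and Ccl21c, Gm10591, Gm13304 and Gm21541 had none in any library.

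Taken as 1 gene, the Ccl21 copies stood at 88.8, 63.9 and 116.5 CPM in WT EV lungs and at 107.7, 124.9 and 120.1 CPM in Tsc1-null EV lungs. Here WT EV replicate 3 lay within the range of the Tsc1-null EV lungs, so the groups overlapped, and the log2 fold was 0.42 ± 0.21 (limma adjusted p = 0.721), and 0.20 without WT EV replicate 2. Summed in this way, the Ccl21 reads were not on the lower side in Tsc1-null EV lungs, while the split between the rows differed. Of all Ccl21 reads, Gm1987 took 0.824% (95% exact Clopper-Pearson interval 0.303 to 1.79), 0.690% (0.142 to 2.00) and 4.24% (3.04 to 5.73) in WT EV lungs. In Tsc1-null EV lungs it took 53.4% (49.1 to 57.7), 99.9% (99.5 to 99.998) and 96.1% (94.8 to 97.2). The intervals cover counting error only. Tsc1-null EV replicate 1 was the only lung with both rows at 50 CPM or more. Whether the mice of the 2 groups carry different Ccl21 copies, or the reads were divided differently between rows, was not tested. Markers of lymphatic endothelium, a known source of Ccl21, had 2 of 5 tested members above 0, 1 of them without overlap. Their sums were 537.7 to 711.6 and 438.0 to 672.1 CPM, with Prox1 at 0.122 to 1.22 CPM. Lyve1 and Pdpn made up most of these sums, at 247.4 to 395.6 and 123.7 to 245.5 CPM over all lungs (log2 folds -0.34 and -0.17). The 2 members above 0 had log2 folds of 0.32 and 0.57, so the sums do not describe all members.

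**Figure D3:**
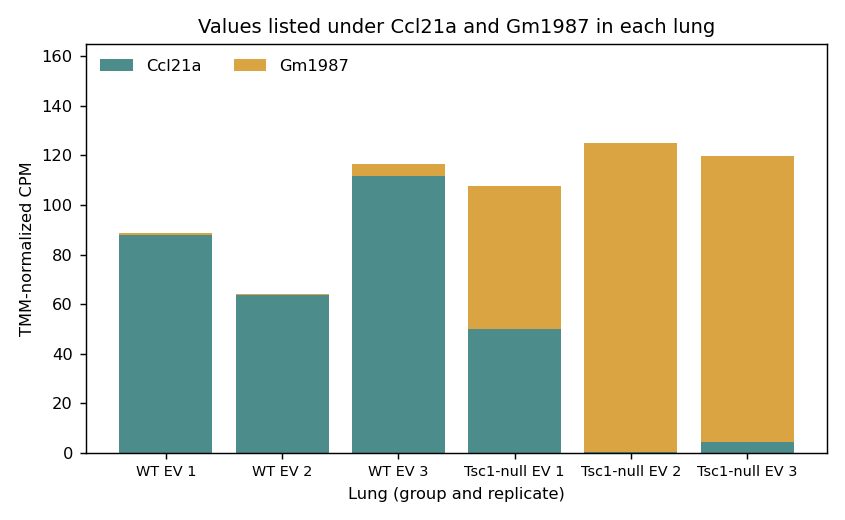
CPM listed under Ccl21a and Gm1987 in each lung, stacked from 0. The stacked height is 63.9 to 116.5 CPM in WT EV and 107.7 to 124.9 CPM in Tsc1-null EV lungs, with nearly all of it under Ccl21a in WT EV and under Gm1987 in Tsc1-null EV replicates 2 and 3.

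Ccl19, the other Ccr7 ligand, was at 1.34, 1.47 and 2.34 CPM and at 1.2, 2.05 and 1.10 CPM, with overlapping lungs (log2 fold -0.15 ± 0.28). It shares 52.0% of its 50-base words with other genes, so its own level is uncertain. Ccr7 was at 2.81, 3.53 and 4.81 CPM and at 3.61, 3.13 and 5.85 CPM. Ackr4, which removes Ccl19, Ccl21 and Ccl25 from tissue, stood at 14.1, 11.0 and 12.3 CPM in WT EV lungs and at 5.41, 7.44 and 9.72 CPM in Tsc1-null EV lungs. All 3 Tsc1-null EV lungs were below all 3 WT EV lungs (log2 fold -0.69 ± 0.23, limma adjusted p = 0.721).

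Ccl27a, a ligand of Ccr10 best known from skin, stood at 2.32, 2.20 and 1.60 CPM in WT EV lungs and at 0.802, 1.08 and 0.442 CPM in Tsc1-null EV lungs. The groups did not overlap (log2 fold -0.79 ± 0.27, limma adjusted p = 0.721, and -1.38 with edgeR on the recovered reads, adjusted p = 0.712). Ccl27a shares 45.0% of its words with other genes, so it was also summed with the copies Ccl27b and Gm13306. The sums were 2.32, 2.79 and 2.1 CPM and 0.802, 1.29 and 0.663 CPM (log2 fold -0.83 ± 0.26, limma adjusted p = 0.721). Unlike Ccl21a, the Ccl27 ligands were lower without overlap also after summing these rows. The sums rest on 17 to 19 reads in WT EV and 4 to 12 reads in Tsc1-null EV libraries. Gm20878, which shares 28.4% of the words of Ccl27a, was not among the rows summed.

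Cxcl14, made by epithelium and fibroblasts, was at 40.3, 45.1 and 40.1 CPM and at 19.6, 35.6 and 43.3 CPM, where the low value belongs to Tsc1-null EV replicate 1. Its log2 fold was -0.41 ± 0.27, which was -0.09 without that library and -0.64 without Tsc1-null EV replicate 3. Cxcl13, which guides B cells to follicles through Cxcr5, was at 4.15, 6.17 and 3.08 CPM and at 2.81, 4.74 and 4.97 CPM. Ccl25, the thymus and gut ligand of Ccr9, and Ccl28, a mucosal ligand of Ccr10, stood between 1.36 and 3.01 CPM in every lung, with log2 folds of 0.08 and -0.09. All of these overlapped.

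**Figure D4:**
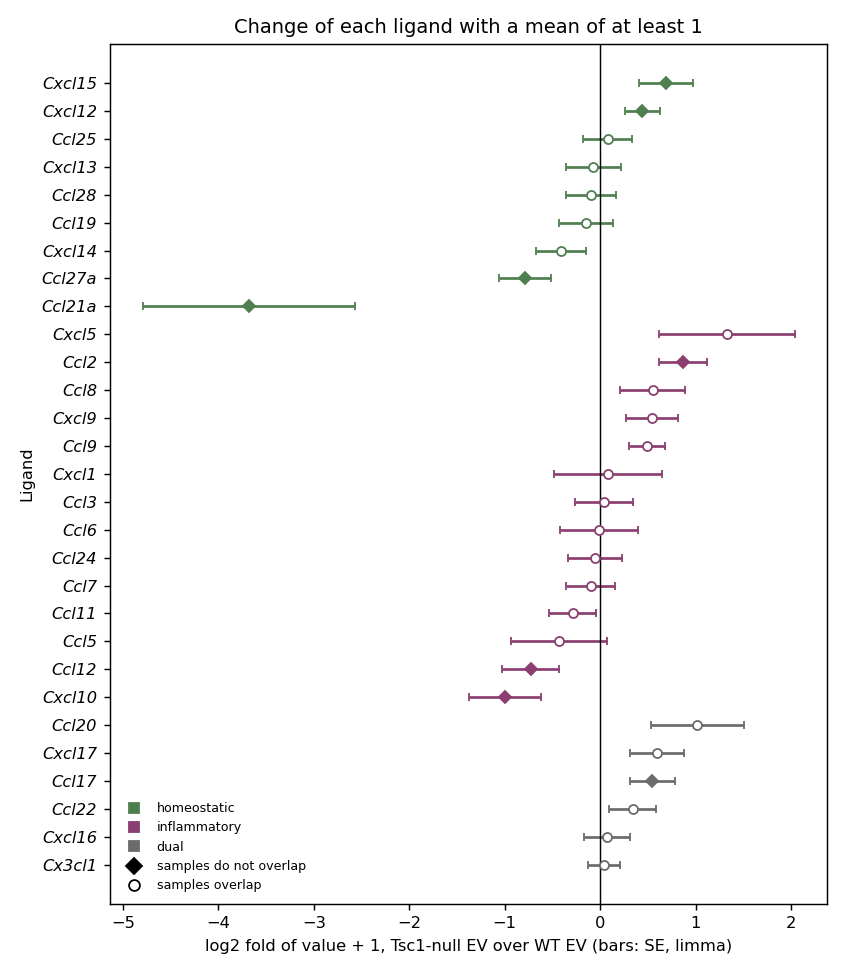
Log2 fold of value + 1 for Tsc1-null EV relative to WT EV, with its limma standard error, for the 29 ligands tested, coloured by class; filled diamonds mark ligands whose lungs do not overlap. Ccl21a lies at -3.68, and the other ligands lie between -0.99 (Cxcl10) and 1.33 (Cxcl5).

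Among inflammatory ligands, the monocyte attractants of the Ccr2 group did not lie on one side. Ccl2 (MCP-1) stood at 1.59, 1.47 and 1.73 CPM in WT EV lungs and at 3.41, 5.07 and 2.98 CPM in Tsc1-null EV lungs. The groups did not overlap, at 10 to 14 reads in WT EV and 17 to 47 reads in Tsc1-null EV libraries. The log2 fold was 0.87 ± 0.25 (limma adjusted p = 0.721). Ccl12, its close relative and also a Ccr2 ligand, lay on the other side, at 3.17, 2.50 and 2.34 CPM and at 0.802, 2.16 and 0.884 CPM. Its groups did not overlap either, though the nearest lungs, at 2.34 and 2.16 CPM, held 19 and 20 reads. The log2 fold was -0.73 ± 0.30 (limma adjusted p = 0.721), and -0.29 with library weights. Ccl7, another ligand of this receptor, was at 1.83, 1.32 and 2.1 CPM and at 1.2, 1.83 and 1.66 CPM, with overlap.

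Ccl8, which in mice acts through Ccr8, was at 5.12, 2.79 and 3.82 CPM and at 3.41, 7.01 and 8.95 CPM. The low Tsc1-null EV value belongs to replicate 1, and the groups overlapped (log2 fold 0.55 ± 0.34, which was 0.89 without that replicate and 0.30 without replicate 3). Ccr2 stood at 36.6, 19.0 and 30.2 CPM and at 27.3, 31.3 and 28.6 CPM. Of 7 markers of monocytes and interstitial macrophages 6 were above 0, with a median of 0.26 and overlapping sums of 151.4 to 258.5 and 191.8 to 341.5 CPM. Their part in the levels of these ligands was not tested.

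Ccl6 and Ccl9 are ligands of Ccr1 made by macrophages. Ccl6 was at 136.7, 97.9 and 77.5 CPM and at 48.3, 143.7 and 144.4 CPM, so that Tsc1-null EV replicate 1 had the lowest level of all lungs and the other 2 the highest. Its log2 fold was -0.01 ± 0.41, and 0.50 ± 0.22 without that replicate. Ccl9 was at 24.9, 19.5 and 19.9 CPM and at 24.7, 36.1 and 31.5 CPM, where only Tsc1-null EV replicate 1 reached into the WT EV range (log2 fold 0.49 ± 0.19, limma adjusted p = 0.721). Ccr1 itself lay at 7.81, 7.05 and 6.54 CPM and at 5.81, 6.15 and 5.85 CPM, lower in all 3 Tsc1-null EV lungs (log2 fold -0.23 ± 0.19). The 8 alveolar macrophage markers had 4 members above 0, with sums of 384.3 to 585.8 and 320.1 to 497.6 CPM. These sums mostly follow their highest member, Car4, at 213.7 to 357.3 and 154.2 to 267.3 CPM (log2 fold -0.40). They therefore say little about the other members, of which Plet1 and Mrc1 came next, with log2 folds of 0.44 and -0.08. Whether Car4 came from macrophages in these lungs was not tested.

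Ccl5 (RANTES), made by natural killer cells and T cells, was at 23.3, 15.7 and 18.6 CPM and at 4.81, 19.1 and 27.0 CPM. Tsc1-null EV replicate 1 was the outlying low lung, and the log2 fold was -0.43 ± 0.51 with it and 0.25 ± 0.22 without it. Leaving out Tsc1-null EV replicate 2 or 3 instead gave -0.65 and -0.89. Natural killer cell markers had 2 of 6 members above 0, with sums of 40.1 to 75.5 and 34.7 to 53.8 CPM. Ccl3, a macrophage product, lay between 0.552 and 1.80 CPM. The eotaxins Ccl11 and Ccl24, ligands of the eosinophil receptor Ccr3, lay between 2.1 and 3.95 CPM and between 1.2 and 2.68 CPM. All 3 overlapped between the groups.

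The interferon-induced ligands of Cxcr3 also lay on opposite sides. Cxcl10 (IP-10) stood at 3.54, 3.67 and 2.71 CPM in WT EV lungs and at 0.200, 2.26 and 1.55 CPM in Tsc1-null EV lungs, the lowest being 1 read in Tsc1-null EV replicate 1. All 3 lay below the WT EV lungs (log2 fold -0.99 ± 0.38, limma adjusted p = 0.721), and without that replicate the log2 fold was -0.57. Cxcl9 was at 2.20, 1.32 and 1.48 CPM and at 3.81, 2.05 and 2.87 CPM, where only Tsc1-null EV replicate 2 reached into the WT EV range (log2 fold 0.54 ± 0.27, limma adjusted p = 0.721). Cxcl11, annotated as a polymorphic pseudogene, had at most 2 reads in a library. Irf1, a transcription factor of the interferon response, was at 131.7 ± 11.2 and 115.1 ± 6.43 CPM (SD, n = 3), with overlap.

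The neutrophil attractants Cxcl1, Cxcl2, Cxcl3 and Cxcl5 share the receptor Cxcr2. Cxcl1, Cxcl2 and Cxcl3 lie near Cxcl15 on chromosome 5, and their promoters hold a letter pattern of the NF-kB family close to the start. The RefSeq promoters (GRCm38.p6) were searched over 250 bases before the start and on both strands for the pattern of GGG, any 2 bases and TTTCC (here the NF-kB pattern), for TTTC, any 2 bases and TTTC (here the interferon pattern), and for TATAAA. Of the 27 ligands with a promoter in the table, 5 held the NF-kB pattern, namely Ccl9, Ccl20, Cxcl1, Cxcl2 and Cxcl3, against 1.41% of 32851 promoters. Ccl2, Ccl5 and Cxcl5 were among the ligands without a promoter there and were not searched. A looser pattern, GGG, any 5 bases and CC, which contains the first, was found in 15 of the 27 and in 45.8% of all promoters. Cxcl10 was among the 15, with a looser match that begins 159 bases before the start and is not in capitals below. The interferon pattern was found in 3 (Ccl19, Cxcl10 and Cxcl14) and in 2.98%. TATAAA was found in 10 and in 12.4%. A ligand with several promoters was counted where any of them matched, while the shares are of single promoters, so the 2 are not alike. The windows are shown because these ligands include both the induced neutrophil attractants and Cxcl10, with any match of the NF-kB pattern, the interferon pattern or TATAAA on either strand in capitals. They are the 120 bases before the start, or bases 250 to 131 before it for Cxcl10, at chr5:90891125-90891244 for Cxcl1, chr5:90903779-90903898 for Cxcl2, chr5:90785981-90786100 for Cxcl3 and chr1:83116646-83116765 for Ccl20, all on the plus strand, and at chr5:92349020-92349139 on the minus strand for Cxcl10.
Cxcl1: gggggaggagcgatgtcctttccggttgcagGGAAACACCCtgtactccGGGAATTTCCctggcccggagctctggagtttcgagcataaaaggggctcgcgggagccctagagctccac
Cxcl2: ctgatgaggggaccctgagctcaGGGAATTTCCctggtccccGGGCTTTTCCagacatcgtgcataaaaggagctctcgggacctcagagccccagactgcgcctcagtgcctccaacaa
Cxcl3: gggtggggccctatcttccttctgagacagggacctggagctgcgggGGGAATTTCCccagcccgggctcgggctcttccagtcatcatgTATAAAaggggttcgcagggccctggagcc
Ccl20: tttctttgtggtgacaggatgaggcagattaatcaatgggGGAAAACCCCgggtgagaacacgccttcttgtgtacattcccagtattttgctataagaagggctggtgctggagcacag
Cxcl10: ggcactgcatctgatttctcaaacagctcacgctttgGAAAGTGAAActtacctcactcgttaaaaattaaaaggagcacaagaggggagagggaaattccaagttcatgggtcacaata
The NF-kB matches begin 89 and 71 bases before the start in Cxcl1, 97 and 78 in Cxcl2, 73 in Cxcl3 and 80 in Ccl20. A match describes the letters only, and no binding was measured here.

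Cxcl1 stood at 2.07, 2.94 and 2.47 CPM in WT EV lungs and at 3.81, 6.79 and 0.331 CPM in Tsc1-null EV lungs. The Tsc1-null EV lungs held both the highest values and the lowest one, in replicate 3 (log2 fold 0.08 ± 0.57, and 0.82 without that replicate). Cxcl5, an epithelial ligand, was at 0.976, 0.147 and 0.987 CPM and at 12.8, 2.59 and 0.442 CPM, highest in Tsc1-null EV replicate 1. Its log2 fold of 1.33 ± 0.71 (limma adjusted p = 0.728) was 0.46 without that replicate, 2.09 when replicate 3 of the same group was left out and 0.20 without both libraries that stood apart. Cxcl2, under the mean of 1, had 2, 4 and 8 reads in WT EV and 6, 16 and 6 reads in Tsc1-null EV libraries.

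Cxcl3, also under the mean of 1, was singled out after its values were seen. It had 1, 0 and 1 reads in WT EV and 5, 8 and 6 reads in Tsc1-null EV libraries, which is 0.082 ± 0.071 and 0.843 ± 0.171 CPM (SD, n = 3), without overlap. In the limma fit without a filter its log2 fold was 0.77, with an adjusted p of 0.589 (limma). With 0 to 8 reads a library, its size is poorly determined. Cxcr2 was at 15.7, 39.1 and 13.6 CPM and at 45.5, 12.4 and 14.3 CPM, high in the 2 libraries that stood apart. The neutrophil markers in the table had 2 of 5 members above 0, with sums of 34.7 to 61.2 and 44.3 to 60.6 CPM.

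Among dual ligands, the ligands of Ccr4 lay on the higher side. Ccl17 (TARC), made by dendritic cells and macrophages, was at 3.05, 3.82 and 3.08 CPM in WT EV lungs and at 4.01, 6.36 and 5.74 CPM in Tsc1-null EV lungs. The groups did not overlap, though WT EV replicate 2 came close to Tsc1-null EV replicate 1 (log2 fold 0.55 ± 0.24, limma adjusted p = 0.721). Ccl22 was at 6.83, 4.12 and 5.55 CPM and at 6.41, 6.15 and 9.06 CPM, with overlap. Its log2 fold was 0.34 ± 0.24, and leaving out replicate 2 of WT EV gave 0.18 and leaving out replicate 3 of Tsc1-null EV gave 0.19. Dendritic cell markers had 4 of 6 members above 0, with sums of 86.9 to 133.9 and 68.2 to 128.1 CPM.

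Ccl20, the Ccr6 ligand of epithelia, stood at 1.10, 1.47 and 1.23 CPM and at 9.02, 3.34 and 1.22 CPM. It was high in Tsc1-null EV replicates 1 and 2 and within the WT EV range in replicate 3 (log2 fold 1.02 ± 0.49, limma adjusted p = 0.721, with 0.46 without replicate 1 and 1.54 without replicate 3). Cxcl17, a mucosal ligand of airway epithelium, was at 39.5, 26.0 and 48.9 CPM and at 75.6, 58.8 and 40.0 CPM. It overlapped (log2 fold 0.59 ± 0.28, limma adjusted p = 0.721), and of the libraries that stood apart, leaving out the WT EV one gave a log2 fold of 0.35, the Tsc1-null EV one 0.38 and both 0.14.

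The membrane-bound ligands were close between the groups. Cxcl16, the ligand of Cxcr6, was at 98.8, 69.7 and 100.2 CPM and at 66.0, 115.3 and 104.8 CPM (log2 fold 0.07 ± 0.24). Cx3cl1 (fractalkine), the ligand of Cx3cr1, was at 46.1, 37.6 and 51.8 CPM and at 43.3, 43.3 and 52.1 CPM (log2 fold 0.04 ± 0.17). Cxcl16 was lowest, in each group, in the library that stood apart. Of the ligands under a mean of 1, Ccl4 had 3 to 13 reads and Xcl1 2 to 8 reads in a library, Ccl27b and Ccl1 had at most 2 reads, and Ccl26 had none.

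Of the 20 chemokine receptors 13 were tested, 5 above 0 and 8 below, with a median of -0.11, and limma called none (0 with an unadjusted p under 0.05). Ccr1 and Xcr1, the Xcl1 receptor of cross-presenting dendritic cells, were lower without overlap, Xcr1 at 6.83, 6.47 and 6.17 CPM and at 4.01, 5.82 and 5.30 CPM. No tested receptor was higher without overlap. Of the 19 inducing cytokines and response genes 12 were tested, 3 above 0 and 9 below, with a median of -0.13 and overlap in every case. Tnf was at 0.457 ± 0.387 and 0.465 ± 0.351 CPM (SD, n = 3), Il1b at 4.61 ± 0.402 and 5.79 ± 1.24 CPM, and Il17a was at 0 in every library. The NF-kB feedback inhibitor Nfkbia was at 330.1 ± 72.0 and 303.8 ± 98.3 CPM.

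**Figure D5:**
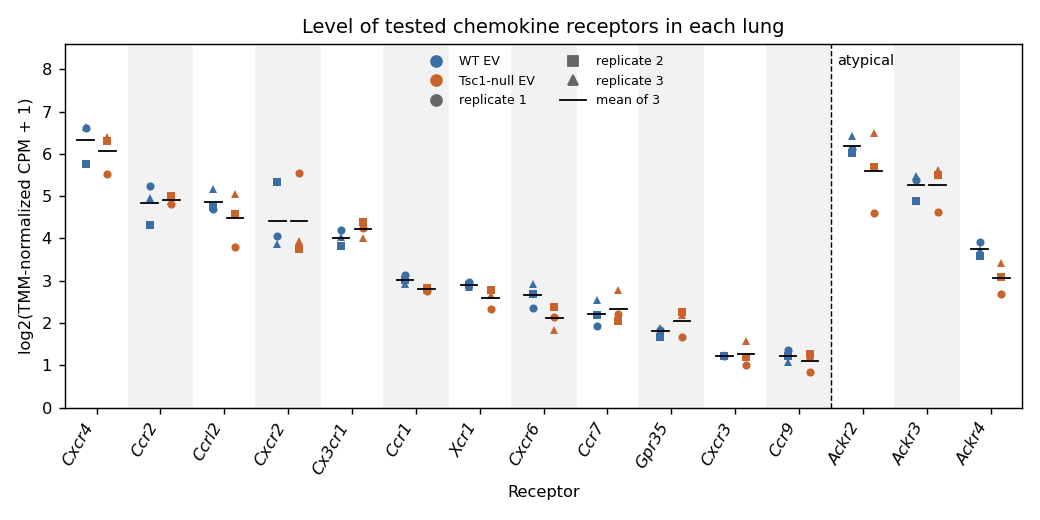
Level of tested chemokine receptors in each lung on a log2(CPM + 1) axis, atypical receptors right of the dashed line; symbols are replicates 1 to 3 and bars are means of 3. Ackr4 lies at 11.0 to 14.1 CPM in WT EV and 5.41 to 9.72 CPM in Tsc1-null EV lungs, and Cxcr2 is high in the 2 libraries that stood apart.

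The platelet chemokines Pf4 and Ppbp, which carry other names and so fall outside the symbol rule, were both lower without overlap. Ppbp stood at 26.3, 31.5 and 21.3 CPM in WT EV lungs and at 19.2, 16.6 and 17.2 CPM in Tsc1-null EV lungs (log2 fold -0.54 ± 0.18, limma adjusted p = 0.721). Pf4 stood at 28.8, 41.3 and 28.9 CPM and at 15.8, 27.0 and 25.0 CPM. The 3 other platelet markers, Itga2b, Gp1bb and Gp9, had smaller log2 folds of -0.05, -0.14 and -0.19, each with overlap. Their sums, 47.2 to 52.8 and 37.9 to 58.8 CPM, overlapped too. Both erythroid markers tested were below 0. The erythroid sums did not overlap, at 4135 to 5725 CPM in WT EV and 1806 to 3617 CPM in Tsc1-null EV lungs. They were nearly all Hba-a1, and Alas2 overlapped, at 58.2 to 83.2 and 26.7 to 70.1 CPM. Hbb-bs was at 0 in every library. The part of blood cells in the levels of Pf4 and Ppbp was not tested.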

How the data were processed

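RNA of 6 mouse lungs was sequenced as paired-end reads, as the labels' protocols state. The file the authors deposited is 1 table whose values are a TMM-normalized signal. Per the submitters' processing notes, Bowtie2 2.1.0, RSEM 1.2.15, edgeR and mm10 were involved, with no role stated. Of annotation, filters and strand nothing is given in the sources used here; overlapping antisense genes cannot be separated. Values were whole multiples of 1 step per library (100% within 0.001), which gave 5101413 to 9358820 reads a library.

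Groups were taken from the treatment labels. Genes with a mean of at least 1 were compared on log2(value + 1), which understates changes of low genes, with limma 3.58.1 in R 4.3.3 (trend, two-sided, Benjamini-Hochberg over 14159 genes, threshold 0.05). Alternatives were a filter at 5 or none, pseudocounts of 0.5 and 0.1, quantile normalization, a common median, library weights, edgeR 4.0.16 and DESeq2 1.42.0 on recovered reads, summed copies, and each replicate left out. Leaving out both libraries that stood apart was added after seeing the data. Every ligand with a mean of at least 1 could be named with its values, and every receptor, inducer and platelet gene. Of each cell type list at most 3 genes could be named. The ligands, classes and lists were chosen with earlier results of these data known. Exon lengths, coding sequences and 50-base words came from GENCODE M21 and promoters from RefSeq. The fit was tested on simulated data. Some genes of the receptor and inducer lists are counted but not reported here.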

Additional observations from a re-analysis of the deposited data

How the results depend on the processing

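The count of 0 called ligands stayed 0 under each pseudocount, filter and normalization tried, with edgeR, with DESeq2 and with copies summed, and was 6 with library weights and 1 (Ccl21a) without both libraries that stood apart. With 1 replicate left out it ranged from 0 to 1. The homeostatic median was 0.018 with the filter at 5 and ranged from -0.21 to 0.0078 with 1 replicate left out. The inflammatory median was 0.24 with the filter at 5, 0.28 with library weights and 0.30 with DESeq2, and ranged from -0.18 to 0.19 with 1 replicate left out. The dual median was 0.20, 0.25 and 0.19 with the filter at 5, library weights and without both libraries. The cause of these shifts was not tested, except that fewer ligands pass the filter at 5.

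Of the 29 ligands 17 kept the sign of their log2 fold under every alternative that gave them a value and 12 did not, none of which was called. With library weights the folds turned to 0.23 for Ccl24, -0.10 for Ccl3, 0.66 for Ccl6, -0.15 for Cx3cl1 and 0.36 for Cxcl13. Without both libraries they turned to 0.076 for Ccl24, -0.22 for Ccl3, 0.12 for Ccl5, 0.48 for Ccl6, -0.039 for Cx3cl1, -0.019 for Cxcl1 and 0.35 for Cxcl13. Ccl6 was at 0.0089 with quantile normalization and at 0.11 with edgeR and with DESeq2, and Cxcl1 at -0.0026 and -0.18 with pseudocounts of 0.5 and 0.1. With 1 replicate left out the log2 folds ranged from -0.32 to 0.0078 for Ccl19, -0.19 to 0.14 for Ccl24, -0.051 to 0.16 for Ccl25, -0.26 to 0.021 for Ccl28, -0.20 to 0.23 for Ccl3, -0.89 to 0.25 for Ccl5, -0.28 to 0.50 for Ccl6, -0.22 to 0.0069 for Ccl7, -0.083 to 0.14 for Cx3cl1, -0.46 to 0.82 for Cxcl1, -0.26 to 0.15 for Cxcl13 and -0.10 to 0.31 for Cxcl16.

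No paired analysis was possible because the groups share no replicate numbers in the labels. A read is worth 0.108 to 0.200 CPM, so ligands near 1 CPM rest on about 5 to 9 reads and small differences between them were not detectable at this depth.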
